A study of Mus musculus with 14 samples.

Results

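The neurons described here are the *Hoxb5*-high pontine neurons of mice at postnatal day 5 (P5), a class of cells of the pontine nuclei (PN), the largest precerebellar nuclei of the brainstem. Members were chosen cell by cell from raw counts of unique molecular identifiers (UMIs, the tags that count captured RNA molecules). A cell needed at least 1000 genes and under 10% mitochondrial UMIs, at least 20 UMIs of *Mapt*, at least 1 each of *Slc17a6* and *Barhl1*, 0 of *En2*, at least 2 of *Hoxb5* and at most 1 of *Nr2f2*. These values chose the members, so no test of those 6 genes is given. At P5, 1411 cells passed, 886 in library 1 and 525 in library 2, of 17908 cells that met the limits on genes and mitochondrial UMIs in both libraries and of 150188 barcodes in all 14 libraries of the study. Of the 8074 P5 neurons that met every requirement apart from those on *Hoxb5* and *Nr2f2*, called gated pontine neurons below, members made up 17.7% in library 1 (exact binomial 95% interval 16.7 to 18.8%) and 17.1% in library 2 (15.8 to 18.49%), a mean of 17.4% ± 0.421 (SD, n = 2 libraries). The share depends on depth, and was 6.12% and 5.08% when every cell was thinned to 10000 UMIs before the gate. These intervals cover counting error only.

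Each P5 library held TdTomato-positive, DAPI-negative cells that were sorted from microdissected PN of 11 to 13 pooled control pups and sequenced with the 10x Genomics 3′ kit. Control mice were Atoh1Cre/+; Rosalsl-tdTomato/+ on a C57BL/6J background, so that every cell whose ancestors switched on the *Atoh1* Cre allele carries the reporter. In this knock-in the Cre gene takes the place of the *Atoh1* coding region, so the controls have a single functional copy of *Atoh1*. Both P5 libraries are from controls. At E18.5, labeled cells of the whole hindbrain gave 1 library per embryo, from 3 controls and 3 Atoh1S193A/- littermates (Atoh1Cre/S193A; Rosalsl-tdTomato/+, whose remaining *Atoh1* copy is hypomorphic). The 2 P5 libraries held 236964126 and 160411671 UMIs, and the E18.5 libraries between 108239001 and 183911797. The P5 libraries shared 38 barcodes, where pairs of the 14 libraries shared between 13 and 67.

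PN neurons arise from the caudal rhombic lip, migrate around the brainstem and send mossy fibers to the cerebellum, where they excite granule cells. Hox genes are transcription factors that lie in clusters and are switched on in order along the head-to-tail axis, so that genes of a higher paralog number mark cells of more caudal origin. In the PN, neurons with different Hox genes are known to come from different rhombomeres and to settle at different positions along the nuclei.

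The members were compared within each library with the 5540 gated neurons that had at most 1 *Nr2f2* UMI and 0 or 1 *Hoxb5* UMI (3428 and 2112 cells), called comparison neurons. UMIs were summed per library and class and tested with edgeR over 11399 genes with the library as a block, and a gene was called at a false discovery rate (FDR) under 0.05 with a log2 change beyond 0.25 in either direction. Levels are given as CPM, the gene's UMIs per 1000000 UMIs of the summed class, and changes are log2 differences, members minus comparison neurons, ± SE. The pools of pups are the replicates, so each P5 test rests on 2 of them. Its FDR and SE come from a model that estimates the spread between libraries partly from all genes together. They cover no more than these 2 libraries. Members were deeper cells than comparison neurons, with a median of 37518 against 28324.5 UMIs in library 1 and 42847 against 31798.5 in library 2. A gene was tested if 10% or more of the cells of either class held a UMI, so a gene that is rare in one class could pass through the other alone, and its direction was then set or favored by the filter. Such genes are given below as a description. In all, 1014 genes were higher in the members (8.9% of those tested) and 852 were lower (7.47%), or 16.4% in all. Of these, 184 higher genes had passed through the members alone and 79 lower genes through comparison neurons alone. Among the 10814 genes that passed in both classes, 830 were higher (7.68%) and 769 lower (7.11%). With comparison neurons drawn to the members' depth the counts were 806 and 726. Without the block only 222 and 155 genes passed.

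The listed markers of the class are *Hoxb5*, *Hoxa5*, *Hoxc4* and *Pappa2*, and they were checked first. As *Hoxa5*, *Hoxc4* and *Pappa2* were picked with results of these libraries known, their P5 levels are a description, and they stand among the counts of called genes. *Hoxa5*, on chromosome 6 (GRCm38, chr6:52201754-52204587, minus strand), was at 88.4 and 89.1 CPM in the members and at 3.17 and 2.20 in comparison neurons, a log2 difference of 5.03 ± 0.06 or 32.7-fold. The difference was 3.42 with cells thinned to 10000 UMIs before the gate and 6.00 against cells with 0 *Hoxb5* UMIs. *Hoxc4* (chr15:103018934-103036852, plus strand) stood at 192 and 201 against 27.3 and 30.8, a difference of 2.79 ± 0.03 or 6.91-fold. Both Hox genes thus separated the classes in both libraries by far more than the libraries differed. *Pappa2* (chr1:158711727-158980490, minus strand), a protease that cleaves insulin-like growth factor (IGF) binding proteins, was at 118 and 109 against 68.8 and 59.0, a difference of 0.85 ± 0.03 or 1.81-fold. It was a matter of degree, as most comparison neurons held it too.

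In single cells, *Hoxa5* was detected in 56.0% and 50.3% of the members against 4.00% and 2.84% of comparison neurons. *Hoxc4* had a UMI in 92.2% and 92.4% against 33.4% and 34.8%, and *Pappa2* in 80.0% and 80.8% against 63.2% and 61.3%. With every cell thinned to 5000 UMIs the *Hoxa5* shares were 26.6% and 22.9% against 0.963% and 0.805%. As a measure of free RNA, 821 and 537 microglia of the same libraries, at medians of 10002 and 10432 UMIs, had *Hoxa5* in 2.07% and 0.186%, *Hoxc4* in 5.12% and 1.49% and *Pappa2* in 5.12% and 1.68%. After thinning, *Hoxa5* was found in 0.982% and 0.203% of microglia. Its share in comparison neurons was thus at the microglial level in library 1 and above it in library 2. It was uneven among them, at 22.2 and 21.3 CPM in cells with 1 *Hoxb5* UMI and 1.69 and 1.01 in cells with 0. Microglia held it at 2.15 and 0.164 CPM. The part of free RNA in the *Hoxa5* of comparison neurons was not tested. All 3 of *Hoxa5*, *Hoxc4* and *Pappa2* were found together in 43.7% and 39.6% of the members and in 2.22% and 1.56% of comparison neurons. General markers of the PN were in place in the members, with *Pax6* at 117 and 106 CPM and *Hoxb3* at 69.3 and 68.4.

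Values just inside and just outside the limits of the gate were as follows. Members with exactly 2 *Hoxb5* UMIs (143 and 88 cells) had *Hoxc4* at 129 and 136 CPM, cells just outside with 1 *Hoxb5* UMI (233 and 119 cells) at 71.1 and 94.3, and cells with none at 23.9 and 26.9. *Hoxa5* was at 51.1 and 19.5 just inside and at 22.2 and 21.3 just outside, so this gene was about level across the limit in library 2 and higher inside it in library 1. *Sst* was at 212 and 314 just inside and at 447 and 578 just outside. Members with exactly 1 *Barhl1* UMI (52 and 24 cells) had *Hoxc4* at 130 and 148, and the 31 and 9 cells that lacked *Barhl1* alone had it at 146 and 165. The median member held 5 *Hoxb5* UMIs in each library, and the highest 33 and 28. Among members with 4 or more *Hoxb5* UMIs (607 and 345 cells), *Hoxa5* reached 105 and 110 and *Hoxc4* 216 and 226, whereas *Pappa2* was highest in cells with 3 *Hoxb5* UMIs, at 131 and 134.

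**Figure D1:**
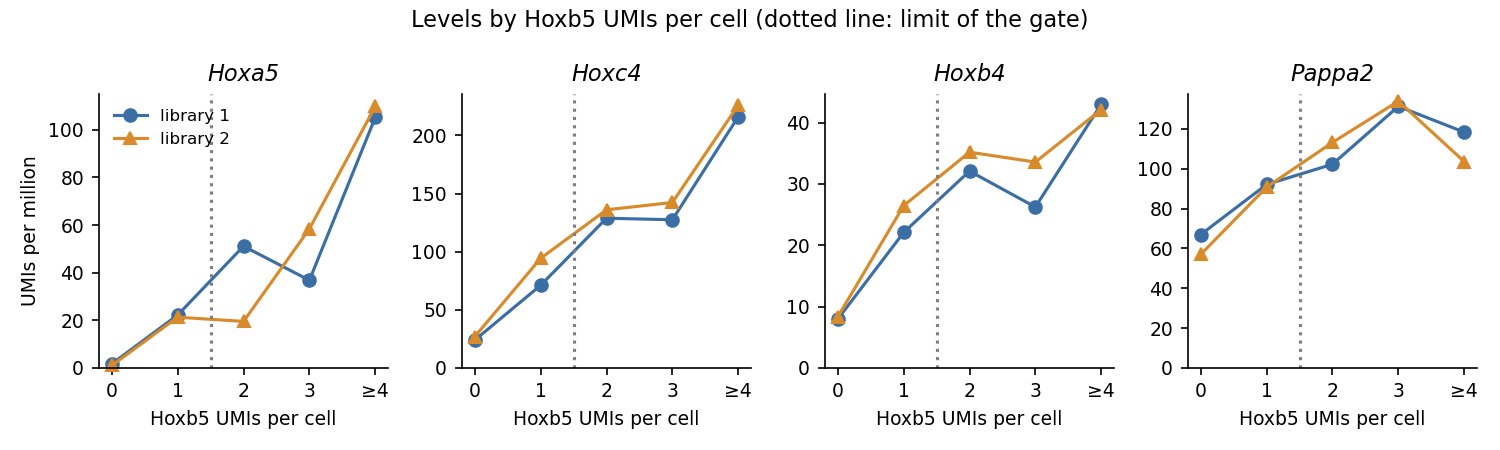
Levels of *Hoxa5*, *Hoxc4*, *Hoxb4* and *Pappa2* (CPM, linear axes) in P5 gated pontine neurons with at most 1 *Nr2f2* UMI, by the number of *Hoxb5* UMIs in the cell, with circles for library 1 and triangles for library 2. *Hoxc4* climbed from 23.9 and 26.9 in cells with 0 *Hoxb5* UMIs to 216 and 226 in those with 4 or more, and in library 1 from 71.1 to 129 across the limit of the gate (dotted line), and *Pappa2* peaked at 3 UMIs.

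The gate also holds a limit on *Nr2f2*, a nuclear receptor that marks another class of PN neurons. Of the gated neurons with at least 2 *Hoxb5* UMIs, 37 of 923 (4.01%) and 21 of 546 (3.85%) held at least 2 *Nr2f2* UMIs and were left out. Among gated neurons with fewer *Hoxb5* UMIs the corresponding shares were 16.0% and 16.3%. Cells high in both genes were thus a small minority of the *Hoxb5*-positive neurons.

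Among the Hox genes, 10 apart from *Hoxb5* passed the filter on low values. Of these, 8 were higher in the members, 1 was lower and 1 was not called. *Hoxa5*, *Hoxc5* and *Hoxd3* passed the filter through the members alone, so their place among the higher genes was set by the filter. The other 7 had 5 higher and 1 lower. These 7 genes had a median log2 change of 0.47, and all 10 one of 1.25, where the median over all genes tested was -0.0014. In group 5, beside *Hoxa5*, *Hoxc5* was at 8.15 and 6.83 CPM against 0.208 and 0.110 (5.51 ± 0.19), a gene nearly absent from comparison neurons, of which 0.554% and 0.379% had a UMI. In group 4, beside *Hoxc4*, *Hoxb4* was at 39.2 and 39.9 against 8.96 and 9.38 (2.14 ± 0.05) and *Hoxa4* at 58.6 and 60.2 against 16.3 and 17.1 (1.86 ± 0.04). The members exceeded comparison neurons in both libraries for each of these genes, with *Hoxc5* changes of 5.28 and 5.91 in libraries 1 and 2 and 4.84 with a *Hoxb5* minimum of 3. In group 3, *Hoxb3* was lower, at 69.3 and 68.4 against 109 and 97.0 (-0.56 ± 0.03), while *Hoxd3* (0.65 ± 0.13) and *Hoxa3* (0.37 ± 0.05) were slightly higher. In group 2, *Hoxa2* was higher by 0.47 ± 0.06 and *Hoxb2* was not called, at 31.0 and 37.7 against 37.3 and 38.1. The calls of *Hoxd3*, *Hoxa3* and *Hoxa2* were lost without the library block, those of *Hoxa3* and *Hoxa2* under thinning, and that of *Hoxd3* with DESeq2 as well. *Hoxa3* was called lower in the members than in the *Etv1*-high neurons described below, and higher than in *Nr2f2*-high and *Cdkn1c*-high neurons. *Hoxa4* and *Hoxa5* lie within the annotated span of *Hoxa3* on the same strand, so that the reads of these 3 genes could be split by the counting. Of 2 antisense RNAs of the clusters, *Hoxaas3* was at 4.96 and 5.44 against 1.74 and 2.32 (1.41 ± 0.13, passing the filter through the members alone), and *Hoxb3os* at 5.79 and 6.58 against 7.22 and 8.45 (-0.31 ± 0.09).

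**Figure D2:**
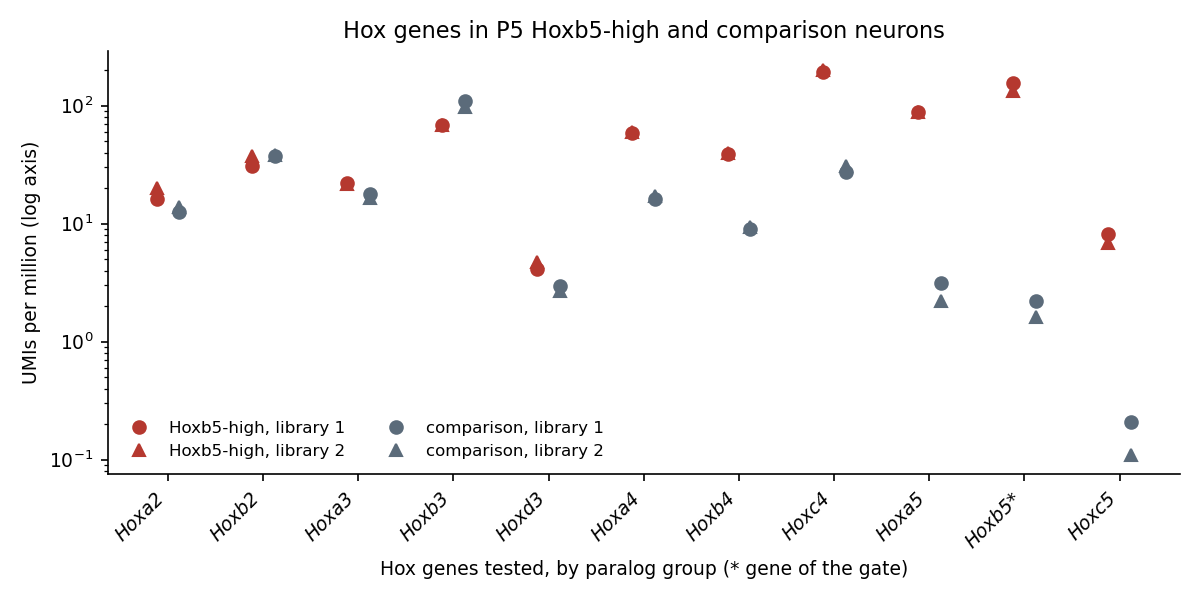
CPM (log axis) of the Hox genes tested at P5 in *Hoxb5*-high neurons (red) and comparison neurons (gray), ordered by paralog group, with circles for library 1 and triangles for library 2. The classes lie far apart for the genes of groups 4 and 5, such as *Hoxc4* (192 and 201 against 27.3 and 30.8), and close together for groups 2 and 3, where *Hoxb3* is lower in the members. *Hoxb5* itself was used to choose the cells.

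The sequences just upstream of *Hoxa5* and *Hoxb4* are shown because these genes of neighboring paralog groups moved together in the members. They are the 250 bases before the gene's start from RefSeq on GRCm38.p6, 5′ to 3′ on the gene's strand (chr6:52204588-52204837, minus strand, and chr11:96318017-96318266, plus strand). Capitals mark matches, on either strand, to AGGTCA, the half-site bound by retinoic acid receptors and other nuclear receptors, or to CCAAT, a common promoter element.
Hoxa5: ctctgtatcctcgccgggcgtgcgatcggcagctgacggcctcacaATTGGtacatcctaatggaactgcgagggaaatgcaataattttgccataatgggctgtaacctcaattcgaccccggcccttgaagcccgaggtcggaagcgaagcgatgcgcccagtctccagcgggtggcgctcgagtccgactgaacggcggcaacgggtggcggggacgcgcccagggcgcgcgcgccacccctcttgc
Hoxb4: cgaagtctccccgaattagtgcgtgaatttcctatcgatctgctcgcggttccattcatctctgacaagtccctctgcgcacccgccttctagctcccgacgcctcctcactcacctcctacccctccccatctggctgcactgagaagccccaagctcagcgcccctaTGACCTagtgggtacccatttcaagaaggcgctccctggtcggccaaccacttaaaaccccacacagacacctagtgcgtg
AGGTCA occurred in 14.02% of 32851 such windows over all genes and CCAAT in 33.8%. Of the 11 Hox genes with values here, 6 had an entry, and each motif was found in 3 of them, AGGTCA in *Hoxb4*, *Hoxc4* and *Hoxd3* and CCAAT in *Hoxa2*, *Hoxa5* and *Hoxd3*. A match of this kind is a description of the letters and no evidence of binding.

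Besides Hox genes, the 12 largest increases in the members included receptors, matrix proteins and enzymes. Of these 12, 10 passed the filter through the members alone, *Hoxc4* and *Hoxb4* being the exceptions, so their values are a description. *Htr1b*, an inhibitory serotonin receptor, was at 14.6 and 11.7 CPM against 2.87 and 2.11 (2.42 ± 0.10). *Hmcn1*, which encodes the matrix protein hemicentin 1, was at 11.2 and 7.24 against 1.31 and 0.645 (3.24 ± 0.13). *Fras1*, a protein of basement membranes, was at 12.8 and 12.4 against 2.34 and 2.99 (2.29 ± 0.10). For all 3 genes both libraries of the members lay above both of the comparison neurons. *Car7*, a cytosolic carbonic anhydrase (2.22 ± 0.11), *Tubb6*, a beta-tubulin (2.30 ± 0.08, or 1.71 with depth-matched cells), and *Alk*, a receptor tyrosine kinase (2.18 ± 0.20), were higher as well, as were *Fam163a* (2.75 ± 0.22) and the uncharacterized *D430036J16Rik* (2.44 ± 0.15).

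The largest decreases were led by a neuropeptide. Of the 12, 9 passed the filter through comparison neurons alone, all but *Palmd*, *Cxcl12* and *Aldh1a1*, and are likewise a description. *Pnoc*, the precursor of nociceptin, was at 3.42 and 4.87 CPM against 53.8 and 58.6 (-3.77 ± 0.07), a level 13.6-fold lower. *Cxcl12*, the chemokine that guides migrating neurons, was at 4.22 and 3.76 against 21.9 and 22.8 (-2.44 ± 0.08). *Aldh1a1*, an enzyme that makes retinoic acid, was at 6.58 and 5.23 against 34.3 and 27.5 (-2.36 ± 0.06). The members thus lay below comparison neurons in both libraries by a margin far wider than the difference between libraries. *Prdm6*, a transcriptional regulator of the PR-domain family (-2.67 ± 0.10, or -3.82 with cells thinned before the gate), *Ptx3*, which encodes a long pentraxin (-2.80 ± 0.11), *Palmd* (-2.54 ± 0.09), the predicted gene *Gm11549* (-3.26 ± 0.15), the calcium channel subunit *Cacna2d3* (-2.31 ± 0.10), *Adamtsl3* (-2.29 ± 0.19), the sialyltransferase *St3gal1* (-2.10 ± 0.14) and the hyaluronan link protein *Hapln1* (-2.01 ± 0.14) were also lower. *Palmd* was not called against the *Etv1*-high neurons described below (-0.65 ± 0.24). They held it at 4.46 and 6.99 CPM, where the members held 3.99 and 2.82.

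**Figure D3:**
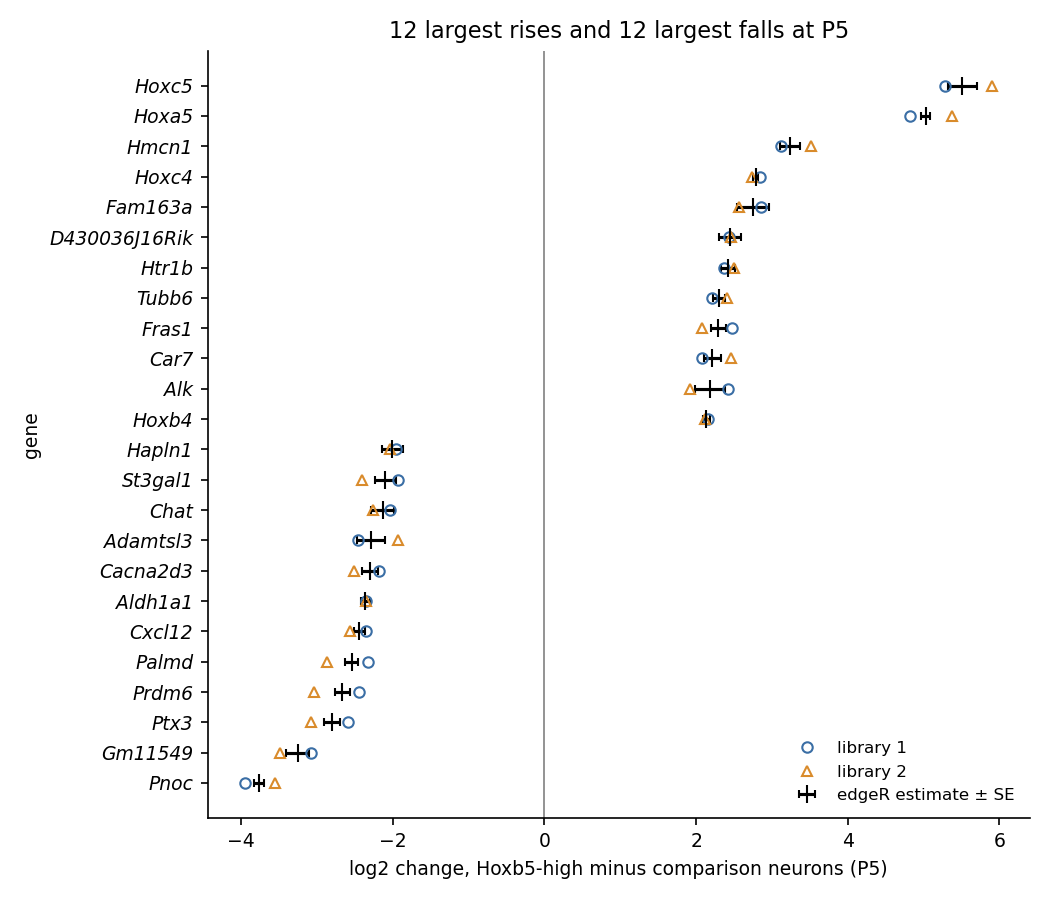
Log2 changes at P5 of the 24 genes at either extreme of the called list, 12 in each direction, for *Hoxb5*-high minus comparison neurons, with circles for library 1, triangles for library 2 and ticks with bars for the edgeR estimate ± SE. The changes run from 5.51 for *Hoxc5* to -3.77 for *Pnoc*, and both libraries lie on the same side of 0 for each gene, as the rule that chose them required. *Hoxa5* and *Hoxc4*, which are listed markers of the class, are among the rises.

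Groups of genes were described by lists that had been chosen with earlier results of these data known, so their counts are a description. They cover the genes of each list that passed the filter in both classes and are read beside the 7.68% and 7.11% of all such genes that were higher and lower. Of 17 Hox cofactors and antagonists, 4 were higher and 4 lower. *Meis2*, a cofactor of Hox proteins, was at 10.7 and 8.63 CPM against 26.3 and 25.0 (-1.36 ± 0.06, or -2.04 with cells thinned before the gate). *Pbx3*, a homeodomain cofactor, was at 11.5 and 11.2 against 5.64 and 5.89 (1.01 ± 0.08), a call lost when cells were thinned before the gate. These cofactors thus moved in opposite directions. The zinc finger gene *Tshz2*, which passed through comparison neurons alone, was at -1.98 ± 0.11. Of the marker classes described below, *Meis2* was called lower against *Nr2f2*-high and *Cdkn1c*-high neurons and was not called against *Etv1*-high neurons.

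Of 28 transcription factors of pontine and rhombic lip neurons, 11 were higher and 8 lower. *Lmo3*, a LIM-only cofactor, was at 93.8 and 89.1 CPM against 44.3 and 43.1 (1.09 ± 0.03). The chromatin organizer *Satb1* (1.04 ± 0.04) and *Barhl2*, a homeodomain factor of the Barh family (0.93 ± 0.09), were higher. *Ebf1*, a factor of differentiating neurons, was lower, at 151 and 117 against 332 and 273 (-1.15 ± 0.02). The marker classes described below held similar levels to the members. These were 131 and 109 in *Nr2f2*-high, 132 and 99.7 in *Cdkn1c*-high and 157 and 123.1 in *Etv1*-high neurons. Low *Ebf1* thus did not set the members apart from these classes. Both directions were therefore represented among the regulators of these neurons. The genes that mark other PN classes, *Cdkn1c* and *Etv1*, were lower too (-0.53 and -0.76), which is given here although their values were seen first. Many members still held *Cdkn1c*, with at least 3 UMIs in 25.3% and 31.4% against 30.1% and 35.9% of comparison neurons. At least 2 *Etv1* UMIs were found in 6.43% and 6.10% against 7.497% and 6.58%. These are the limits of the *Cdkn1c*-high and *Etv1*-high gates used below.

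Axon guidance genes split almost evenly, with 14 of 53 higher, 11 lower and a median of 0.03. *Robo2*, a receptor for Slit proteins, was at 255 and 241 CPM against 124 and 113 (1.09 ± 0.02). *Ntng1*, a membrane-bound netrin relative, was at 77.0 and 63.3 against 23.2 and 21.3 (1.69 ± 0.04). These 2 genes were about equally high in both libraries. *Dcc*, the receptor for netrin 1 that draws PN axons and cell bodies to the midline, was low in both classes, at 1.45 and 1.02 against 4.58 and 4.27 (-1.78 ± 0.16). *Dcc* passed the filter through comparison neurons alone, as did the secreted semaphorin *Sema3c* (-1.76 ± 0.12). The Eph receptor *Ephb1* was lower (-1.28 ± 0.03).

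Adhesion molecules and synapse organizers leaned toward the members, with 22 of 52 higher and 7 lower (median 0.17). *Nxph1*, a secreted ligand of neurexins, was at 178 and 224 CPM against 62.9 and 86.5 (1.46 ± 0.03). *Alcam*, an adhesion protein of the immunoglobulin family, was at 71.2 and 69.6 against 25.5 and 24.2 (1.52 ± 0.04), and *Lypd1*, a modulator of nicotinic receptors, at 36.8 and 41.0 against 10.6 and 10.8 (1.88 ± 0.05). The lower library of the members was at least 2 times the higher library of comparison neurons for each of these genes. *Cbln2*, a cerebellin that bridges synapses, passed through the members alone, with a change of 1.33 ± 0.10 and a call that was lost without the library block or with cells thinned before the gate. In contrast, cadherins and protocadherins were more often lower (14 of 46) than higher (6), with a median of -0.12. *Cdh8* was at 71.3 and 64.9 against 144 and 128 (-0.97 ± 0.03), whereas *Cdh4* (1.25 ± 0.06), *Cdh13* (1.14 ± 0.05) and *Cdh23* (1.39 ± 0.07) were higher, with the call of *Cdh13* lost under thinning.

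Among 18 neuropeptides and granins, 5 were higher and 4 lower. *Sst*, which encodes somatostatin, was at 184 and 210 CPM against 721 and 823 (-1.94 ± 0.02, FDR 1.1e-50), a level 3.85-fold lower. *Grp*, gastrin-releasing peptide, was at 8.89 and 11.9 against 3.15 and 1.89 (1.99 ± 0.13), and *Nppc*, C-type natriuretic peptide, at 29.2 and 29.4 against 10.7 and 9.96 (1.52 ± 0.06). The members thus held less somatostatin RNA and more *Nppc*, while *Grp* passed the filter through the members alone. Of 12 genes of transmitter synthesis and transport, 6 were higher and 2 lower. *Slc17a7*, the vesicular glutamate transporter VGLUT1, was at 50.7 and 51.0 against 36.1 and 33.3 (0.57 ± 0.04) but fell to a change of 0.24, under the limit for a call, with depth-matched cells, and its call was lost under thinning too. The glial-type glutamate transporter *Slc1a2* was higher by 0.84 ± 0.04 and lost its call without the block. *Chat*, choline acetyltransferase, was at 1.40 and 1.02 against 5.85 and 5.10 (-2.13 ± 0.15), and *Slc18a3*, the vesicular acetylcholine transporter, at 9.49 and 9.41 against 33.1 and 36.6 (-1.84 ± 0.06). *Slc18a3* lies within the transcription unit of *Chat*, so the counting may split their reads, and *Chat* passed through comparison neurons alone. Against the marker classes described below, the *Slc18a3* change was -0.39 (*Nr2f2*-high), -0.32 (*Cdkn1c*-high) and -2.32 (*Etv1*-high). It was detected in 17.7% of the members and in 17.9%, 15.7% and 73.0% of these classes. Low *Slc18a3* thus set the members apart mainly from *Etv1*-high neurons among these classes.

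Of 10 receptors for acetylcholine and monoamines, 2 were higher and 3 lower. *Htr7*, a serotonin receptor that raises cyclic AMP, was at 17.0 and 17.1 CPM against 3.86 and 4.24 (2.11 ± 0.08). *Htr2c*, a serotonin receptor coupled to phospholipase C, was at 15.6 and 14.1 against 4.62 and 3.73 (1.85 ± 0.08, or 2.57 with depth-matched cells). *Htr2c*, like *Htr1b*, passed through the members alone, whereas *Htr7* and the muscarinic receptor *Chrm2* (0.62 ± 0.03) passed in both classes and were higher. Among 36 subunits of glutamate, GABA and glycine receptors, 11 were higher and 7 lower. The kainate receptor subunit *Grik2* was at 36.1 and 40.4 against 14.2 and 14.1 (1.45 ± 0.05). The glycine receptor subunit *Glra3* (1.64 ± 0.09) passed through the members alone, while the kainate receptor subunit *Grik4* was lower (-0.95 ± 0.11).

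Ion channel genes were higher in 19 of 81 cases and lower in 6. *Kcnmb2*, an auxiliary subunit of large-conductance potassium channels, was at 33.2 and 31.8 CPM against 14.6 and 14.3 (1.20 ± 0.05), and *Kcnab1*, an auxiliary subunit of voltage-gated potassium channels, was higher by 0.95 ± 0.10, a call lost without the block. Of 22 calcium-binding proteins, 7 were higher and 1 lower. *Vsnl1*, the calcium sensor visinin-like 1, was at 546 and 652 against 314 and 352 (0.87 ± 0.02), and *Calb1*, calbindin, at 169 and 147 against 105 and 102 (0.64 ± 0.03). *Kcnip4*, which belongs to both lists as a calcium-binding subunit of potassium channels, was higher by 0.93 ± 0.04. The exception, *Pcp4*, a regulator of calmodulin, was at 638 and 571 against 1442 and 1290 (-1.15 ± 0.02). Its direction varied among the marker classes described below. *Pcp4* was called higher in the members than in *Nr2f2*-high and *Cdkn1c*-high neurons and lower than in *Etv1*-high neurons. Against *Etv1*-high neurons 15 of 82 ion channel genes were higher and 15 lower (all such genes 9.63% and 8.64%). Calcium-binding proteins were higher in 6 of 23 cases there and lower in 7. Neither list leaned toward the members there. Against *Nr2f2*-high neurons the lists had 34 higher and 11 lower of 81, and 13 and 3 of 22 (13.8% and 13.3%). Against *Cdkn1c*-high neurons they had 33 and 5 of 79, and 9 and 2 of 22 (11.0% and 10.6%).

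Genes of the maturing axon and of energy metabolism were higher in 17 of 34 cases and lower in 1 (median 0.22). *Nefh*, the heavy neurofilament chain, was at 66.1 and 54.1 CPM against 35.8 and 27.9 (0.94 ± 0.04). *Ppargc1a*, a coactivator that drives mitochondrial biogenesis (0.75 ± 0.03), and the synaptic vesicle genes *Syn2* (0.57 ± 0.02) and *Syt1* (0.56 ± 0.02) were higher. The calls of *Syn2* and *Syt1* were lost without the library block. Members also had a higher median share of mitochondrial UMIs, 3.20% and 3.01% against 2.79% and 2.54%, and more genes per cell, 6675.5 and 6906 against 5984 and 6170.5. With depth-matched cells all 4 genes kept their calls. When cells were thinned before the gate, the call of *Nefh* was lost. Against the *Etv1*-high neurons described below, 6 of 34 genes of this list were higher and 2 lower (all such genes 9.63% and 8.64%). Against *Nr2f2*-high neurons 22 were higher and 3 lower (13.8% and 13.3%), and against *Cdkn1c*-high neurons 18 and 3 (11.0% and 10.6%). The lean toward the members was thus smaller against *Etv1*-high neurons, with a median of 0.084.

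In the IGF axis, to which *Pappa2* belongs, 2 of 11 genes were higher and 4 lower. The binding proteins *Igfbp4* (-0.97 ± 0.08) and *Igfbp5* (-0.86 ± 0.03) and the ligand *Igf1* (-0.90 ± 0.06) were lower, and *Igfbp3* (0.99 ± 0.11) passed through the members alone. The call of *Igfbp4* was lost under thinning. *Igfbp5*, a substrate of the *Pappa2* protease, was at 92.1 and 78.5 CPM against 161 and 157. Among 10 neurotrophins and their receptors, 4 were higher and 3 lower. *Bdnf*, brain-derived neurotrophic factor, was at 186 and 205 against 145 and 137 (0.49 ± 0.03), but its change was 0.15 with depth-matched cells and was then not called. *Ntrk3*, the receptor of neurotrophin 3, was lower (-0.73 ± 0.04), as was *Gfra2* (-0.63 ± 0.06), a receptor of the GDNF family, and the growth factor *Tgfb2* was higher (0.50 ± 0.03). The calls of *Bdnf*, *Gfra2* and *Tgfb2* were lost without the block, and that of *Gfra2* under thinning. Of 14 immediate early and dissociation genes only *Egr1* was called (0.46 ± 0.06), and it lost its call without the block and under thinning.

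The study had named 10 top markers for the PN cluster that holds *Hoxb5*. Because that list was chosen on these libraries, it is no independent evidence. The 8 genes of it that passed in both classes were all higher in the members here (median 0.94), among them *AI593442* (0.98), *Fibin* (0.89) and *Scg2* (0.83), a secretogranin.

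Markers of other cell types were summed in each class. The 6 microglial markers came to 79.6 and 59.0 CPM in the members against 78.4 and 54.6 in comparison neurons, and to 15515 and 16241 in the microglia themselves, and none passed the filter. The 6 oligodendrocyte markers came to 193 and 148 against 373 and 217, with *Mbp* lower in the members (-0.79 ± 0.03), a call lost without the library block. Microglial sums were thus slightly higher in the members of both libraries, and oligodendrocyte sums lower. The 5 astrocyte markers came to 74.6 and 51.0 against 70.0 and 49.4, with *Slc1a3*, which lost its call without the block and under thinning, higher (0.46 ± 0.04) and *Aqp4* and *Aldoc* lower (-0.43 ± 0.08 and -0.36 ± 0.10), and the *Aqp4* and *Aldoc* calls were lost without the cells of the highest doublet scores. The 3 endothelial markers came to 1.74 and 1.59 against 3.64 and 1.95. Of the 4 inhibitory markers, *Gad2* was at 67.1 and 58.8 against 43.1 and 45.1 (0.55 ± 0.04, not called without the block), while *Gad1*, *Slc32a1* and *Slc6a5*, which define GABA and glycine neurons, were at most at 0.456 in either library of the members. *Gad2* was called higher in the members than in the *Nr2f2*-high and *Etv1*-high neurons described below. It was not called against *Cdkn1c*-high neurons, which held it at 66.6 and 68.3. Of the 4 granule lineage markers, *Reln* was at 76.1 and 79.8 against 34.0 and 33.3 (1.23 ± 0.04), Eomes and *Gabra6* were at most at 1.08, and *En2* was at 0 by the gate. The sums of the 4 cholinergic and serotonergic markers were 12.8 and 11.9 against 39.8 and 42.5, and the serotonin transporter *Slc6a4*, below the filter, was at 1.60 and 1.43 against 0.757 and 0.617. The part of these other cells in the results was not tested.

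How the members differ from named neighbors was asked with 3 other marker gates that share the same base requirements, namely *Nr2f2*-high (654 and 411 cells), *Cdkn1c*-high (1033 and 758) and *Etv1*-high neurons (257 and 139). All 3 hold at most 1 *Hoxb5* UMI per cell, so members that met the *Cdkn1c* or *Etv1* limit were not counted in those classes. The *Cdkn1c*-high and *Etv1*-high neurons are subsets of the comparison neurons. These contrasts use the same members, so their values are set side by side and were not compared further. Against *Nr2f2*-high neurons 3329 genes were called (28.9%), with 1710 higher in the members (14.8%) and 1619 lower (14.1%). Against *Cdkn1c*-high neurons 1410 were higher (12.4%) and 1224 lower (10.7%), or 23.1% in all, and against *Etv1*-high neurons 1220 were higher (10.4%) and 1143 lower (9.79%), or 20.2% in all. *Hoxa5* was near the floor in all 3 classes, between 0.968 and 3.81 CPM. *Hoxc4*, in contrast, was graded, at 7.84 and 7.29 in *Nr2f2*-high, 23.3 and 30.7 in *Cdkn1c*-high and 64.1 and 75.4 in *Etv1*-high neurons, against 192 and 201 in the members. *Hoxa4* followed the same order, with 4.69 and 6.27, 10.3 and 11.1, and 36.6 and 39.7 against 58.6 and 60.2. *Etv1*-high neurons were thus the class nearest to the members in the group 4 Hox genes. *Hoxb3* was lower in the members than in *Nr2f2*-high (-0.46 ± 0.05) and *Cdkn1c*-high neurons (-0.57 ± 0.04) and was not called against *Etv1*-high neurons (-0.15 ± 0.05).

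Other genes with large differences varied by class. Of those named next, *Cxcl12*, *Palmd*, *Sst* and, against *Etv1*-high neurons, *Igf1* and *Fras1* passed the filter in both classes of their contrast. Each of the others passed through the class in which it is higher alone, so that its values are a description. Against *Nr2f2*-high neurons, the genes with the largest decreases were *Lhx2*, a LIM-homeodomain factor (0.171 and 0.204 against 5.57 and 6.48 CPM, -4.91 ± 0.28), the serotonin receptor *Htr2a* (-4.73 ± 0.22), *Lce3c* (-3.79 ± 0.24) and *Atoh8* (-3.77 ± 0.28), a bHLH factor related to *Atoh1*. Against *Cdkn1c*-high neurons, they included *Palmd* (3.99 and 2.82 against 35.0 and 31.8, -3.26 ± 0.09), the keratin *Krt35* (-2.69 ± 0.11, or -1.76 with depth-matched cells) and *Sema3c* (-2.67 ± 0.11). The members held more of the carbonic anhydrase *Car9* (5.13 and 4.78 against 0.415 and 0.361, 3.67 ± 0.24) and of *Tubb6* (3.46 ± 0.12) than this class. Against *Etv1*-high neurons, the members had far less *Ntf3*, which encodes neurotrophin 3 (0.513 and 0.245 against 23.4 and 26.5, -5.91 ± 0.22), *Lrrc10b* (-4.80 ± 0.31), *A730046J19Rik* (-4.04 ± 0.30) and *Ptx3* (-3.95 ± 0.14), and more *Car3* (9.15 and 9.69 against 0.651 and 0.149, 4.35 ± 0.32, or 5.52 with depth-matched cells) and *Hmcn1* (4.23 ± 0.30). *Igf1* was high in *Etv1*-high neurons alone of the 4 classes, at 151 and 185 against 10.9 and 10.6 in the members. In *Nr2f2*-high neurons it was at 5.57 and 10.4, and in *Cdkn1c*-high neurons at 4.79 and 4.93. Against these classes *Igf1* was called higher in the members, through which alone it passed the filter. *Htr1b* and *Fras1* were higher in the members, and *Pnoc*, *Prdm6* and *Cxcl12* lower, in each of the 3 contrasts. The summed level of *Sst* was lower even than in *Cdkn1c*-high neurons, which held 240 and 294 CPM against 184 and 210 (-0.42 ± 0.03). The share of cells with an *Sst* UMI went the other way, at 74.4% and 66.3% of the members against 61.1% and 49.7%. With cells thinned to equal depth it was 38.4% and 35.05% against 28.8% and 23.7%. *Cdkn1c*-high neurons thus held more *Sst* RNA in a smaller share of cells.

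**Figure D4:**
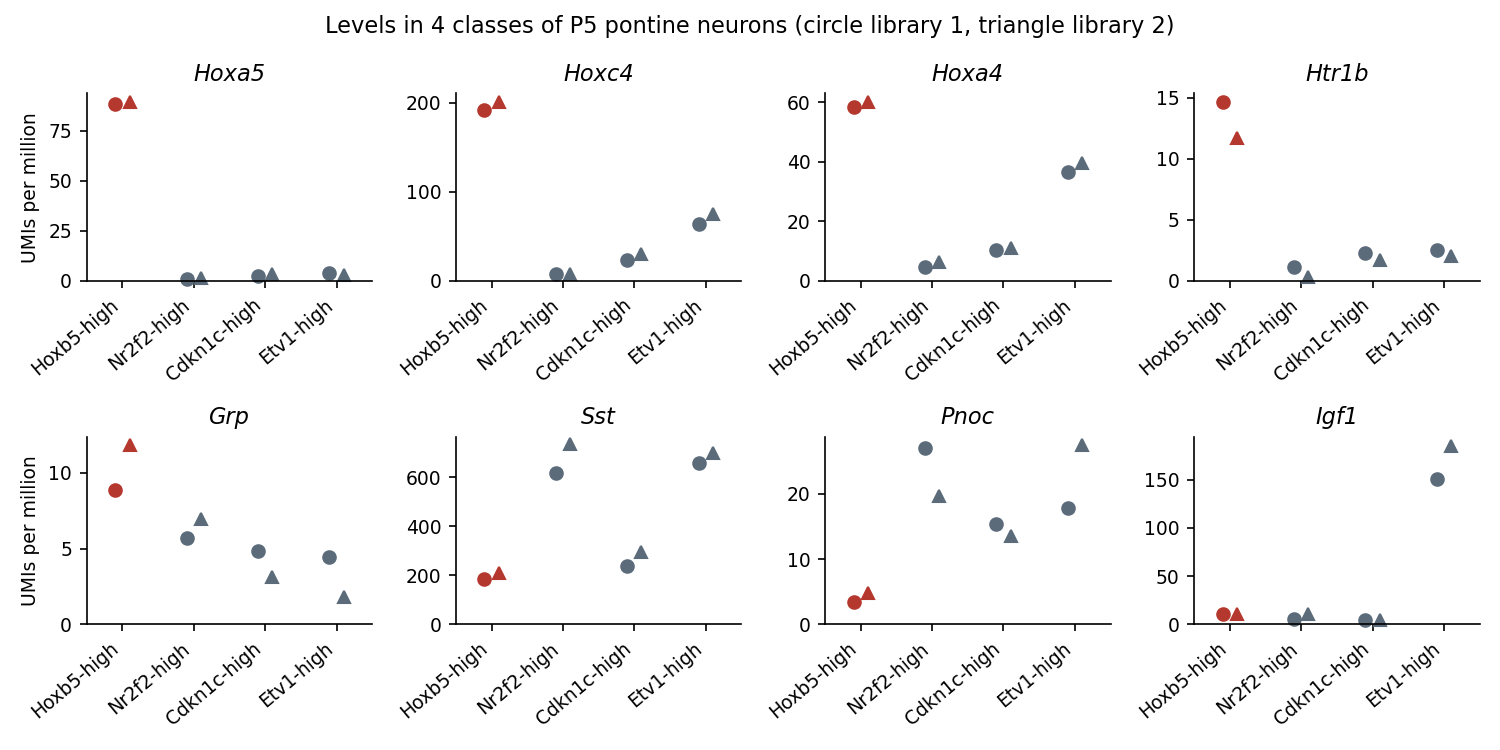
Levels of 8 genes (CPM, linear axes from 0) in *Hoxb5*-high (red), *Nr2f2*-high, *Cdkn1c*-high and *Etv1*-high neurons (gray) at P5, with circles for library 1 and triangles for library 2. *Hoxa5* stood out in the *Hoxb5*-high class, at 88.4 and 89.1 against at most 3.81 elsewhere, while *Hoxa4* was graded up to 36.6 and 39.7 in *Etv1*-high neurons and *Igf1* was high in that class.

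When all gated neurons were clustered on variable genes without Hox or gate genes, 19 clusters resulted, and cluster 3 held 42.2% of the members, cluster 11 17.9% and cluster 9 16.6%, with at most 4.46% in any other. Members made up 75.9%, 77.1% and 54.2% of these 3 clusters. Library 1 and library 2 gave similar values for cluster 3, which held 43.3% and 40.4% of their members. The genes that the gate did not use thus gathered most members into a few clusters, but not into a single one.

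Among the members, cells with a *Hoxa5* UMI were compared with cells that had none, a split that depends on depth since a deep cell more often shows a rare RNA. Here 622 genes were higher in *Hoxa5*-positive members and 478 lower (5.4% and 4.15% of those tested, 9.54% in all), 375 in total with depth-matched cells and 20 without the library block. *Stxbp6*, a binding partner of syntaxins, was at 86.4 and 88.6 CPM in *Hoxa5*-positive and at 21.5 and 20.4 in *Hoxa5*-negative members (2.05 ± 0.07), and *Prex2*, an activator of Rac, at 15.2 and 15.0 against 4.04 and 3.58 (1.97 ± 0.15). *Nell1*, a secreted protein with EGF-like repeats, went the other way, at 2.43 and 3.39 against 13.7 and 14.7 (-2.32 ± 0.17). These 3 calls stood without the block, although *Nell1* passed the filter through *Hoxa5*-negative members alone, whereas those of *Fgf3* (3.40 ± 0.39), *Gm5868* (-1.76 ± 0.23), *C1ql1* (-1.71 ± 0.23) and *Sema3d* (-1.62 ± 0.22) did not. *Fgf3* passed the filter through *Hoxa5*-positive members alone, and *Gm5868*, *C1ql1* and *Sema3d* through *Hoxa5*-negative members alone. Among the Hox genes, *Hoxc5* (1.89 ± 0.18, passing through *Hoxa5*-positive members alone), *Hoxc4* (1.00 ± 0.04), *Hoxa4* (0.98 ± 0.06) and *Hoxb4* (0.28 ± 0.07) were higher in *Hoxa5*-positive members, and *Hoxb3* was not called (-0.13 ± 0.05). Some genes that were high in the class as a whole were lower where *Hoxa5* was present, *Htr1b* (-0.76 ± 0.11) and *D430036J16Rik* (-1.05 ± 0.19), and *Pappa2* was at 110 and 87.2 against 130 and 136 (-0.42 ± 0.04).

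The E18.5 control libraries hold none of the members but are not unseen data, as the study names *Hoxb5* as a marker of an E18.5 subtype. The gate, chosen with earlier results of these data known, was applied there unchanged. It passed 76, 62 and 155 cells, of 619, 540 and 1018 gated neurons, and 198, 236 and 419 served as comparison neurons. The passing cells were the deeper ones here too, at medians of 25127.5, 17496.5 and 23313 UMIs against 20697.5, 15811 and 19925. These libraries hold whole hindbrains, so stage and dissection cannot be told apart, and whether the passing cells belong to the PN was not tested. The gated neurons differed in makeup from those of P5, as 55.7%, 44.8% and 43.6% of them held at least 2 *Nr2f2* UMIs against 13.8% and 14.1% at P5. At E18.5, 645 genes were higher (6.18%) and 435 lower (4.17%) of 10437 tested. *Hoxa5* was at 947, 836 and 666 CPM against 32.2, 23.0 and 15.4 (5.18 ± 0.07), and *Hoxc4* at 349, 329 and 333 against 42.6, 49.6 and 44.1 (2.91 ± 0.07, FDR 4.6e-20). In both genes every library of the passing cells lay far above every library of the others. *Hoxa5*, *Hoxc5* and *Hoxd3* passed the filter through the passing cells alone, as at P5. Of the 7 Hox genes that passed in both classes, 5 were higher and 2 were not called. *Hoxc5* (4.76 ± 0.28), *Hoxb4* (2.22 ± 0.10) and *Hoxa4* (1.97 ± 0.10) were close to their P5 changes, and the test of the difference between the stages did not pass for these 3 genes, *Hoxa5* or *Hoxc4*. The change at P5 differed from that at E18.5 for 912 of 11288 genes tested (8.08%), with 414 values higher at P5 (3.67%) and 498 lower (4.41%). It was called for *Hoxb3*, which was at 156, 159 and 161 against 146, 152 and 152 at E18.5 (0.09 ± 0.06), and for *Hoxd3* (1.55 ± 0.23 at E18.5), the latter lost with DESeq2 or depth-matched cells.

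*Pappa2*, unlike the listed Hox markers, was lower at E18.5. It was at 23.8, 43.8 and 25.5 CPM in E18.5 cells that passed the gate and at 39.0, 46.2 and 42.5 in the others (-0.56 ± 0.13, FDR 0.0039), lower in 3 of 3 libraries, although the ranges overlap and the call was lost with DESeq2, without the block and without replicate 3. The change at P5 exceeded that at E18.5 by 1.44 ± 0.13 (FDR 1.0e-07). As *Pappa2* was picked with P5 results known, the P5 side of this test was selected, and its value is a description. *Pappa2* thus followed the *Hoxb5* gate at P5 and not at E18.5, in contrast to *Hoxa5* and *Hoxc4*.

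Agreement between the stages was counted over all called genes, Hox genes included. Of the 1014 genes that were higher at P5, 714 were tested at E18.5. The same sign was found there for 565 of them (79.1%), where 49.7% of all genes tested were above 0. Of those 714, 236 were called higher at E18.5 (33.1%, and 36.6% of the 645 genes called higher at that stage), and 28 were called lower. Of the 852 lower genes, 679 were tested, 492 (72.5%) had the same sign and 169 were called lower (24.9%, and 38.9% of the 435). The P5 sets include the 184 higher and 79 lower genes that had passed the filter through 1 class alone, and the E18.5 calls include such genes too. Their sign was set or favored by the filter, and no count of the agreement without them is given. Passing cells were deeper than comparison neurons at both stages, and the part of depth in the agreement was not tested. *Grp* (2.71 ± 0.27), *Htr7* (2.16 ± 0.20), *Fras1* (2.22 ± 0.22), *Alcam* (1.86 ± 0.13) and *Nxph1* (1.41 ± 0.09) were higher at both stages, although at E18.5 only *Alcam* and *Nxph1* passed the filter in both classes. *Htr7*, for example, was at 36.1, 31.5 and 20.3 CPM against 9.97, 3.58 and 5.11. *Sst* was at 10.5, 97.1 and 74.5 against 415, 267 and 358 (-2.60 ± 0.23) and *Cxcl12* at 3.33, 11.4 and 4.43 against 46.9, 31.9 and 41.4 (-2.95 ± 0.23), below every comparison library in each case. The *Sst* call was lost with DESeq2. *Ptx3* (-4.43 ± 0.50) and *Palmd* (-2.91 ± 0.27) were lower at E18.5 as well, and these 2 and *Cxcl12* passed the filter through comparison neurons alone.

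**Figure D5:**
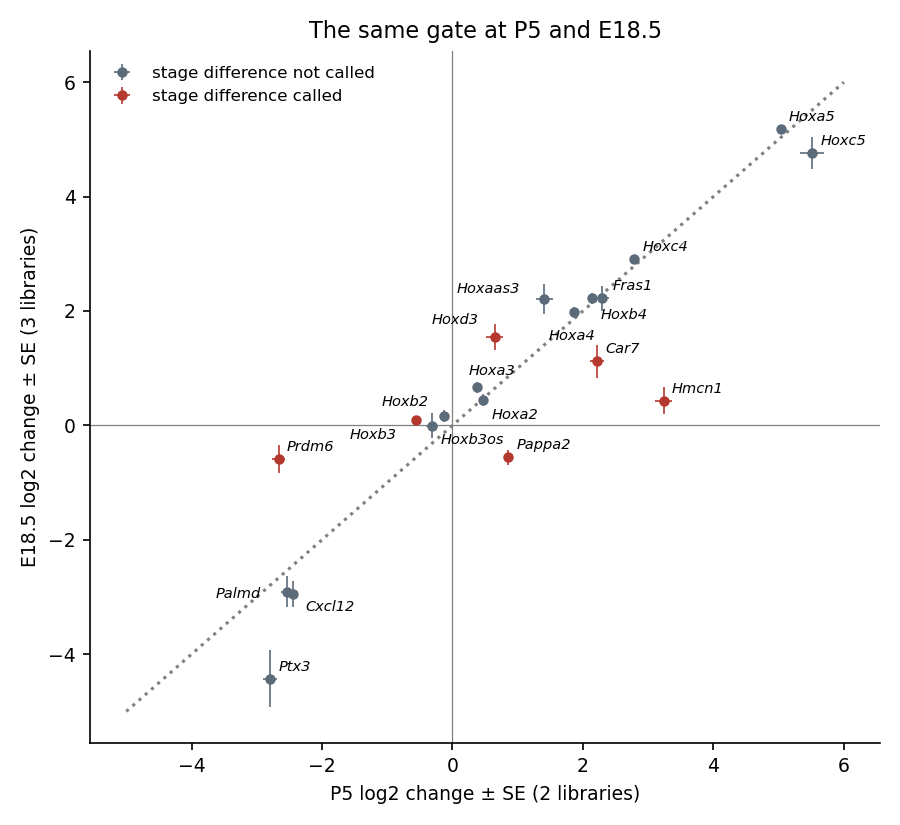
Log2 change ± SE of cells that pass the *Hoxb5* gate against comparison neurons at P5 (horizontal axis, 2 libraries) and at E18.5 (vertical axis, 3 control libraries), for the listed markers, the Hox genes and the largest P5 changes that were tested at both stages, with red for genes whose change was called different between the stages. *Hoxa5*, *Hoxc4*, *Hoxb4* and *Hoxa4* lie near the dotted line of equal change, whereas *Hmcn1* (3.24 at P5, 0.43 at E18.5) and *Pappa2* (0.85 and -0.56) lie below it.

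Whether the share of hindbrain cells that pass the gate differs with partial loss of *Atoh1* function was asked at E18.5. Both P5 libraries are controls, and the E14.5 libraries were not used. By in situ hybridization at P5, the study found fewer neurons with *Hoxb5* and *TdTom* in caudal pontine sections of Atoh1S193A/- mice. The in situ measure differs from a share of sorted cells. In its single-cell data at E18.5, the study found a smaller share of the subtype marked by *Prox1* in these mutants. It reported no significant change in its other differentiated subtypes, among them the one marked by *Hoxb5*. Its shares are of PN cells chosen by clusters, and not of cells that pass this gate. In Atoh1S193A/- embryos the cells that passed the gate made up 13.1%, 11.3% and 20.7% of gated neurons (88 of 673, 48 of 425 and 133 of 643), and in controls 12.3%, 11.5% and 15.2%. The means were 15.0% ± 4.99 and 13.0% ± 1.97 (SD, n = 3 each), a difference of 2.02 percentage points that was within the spread of the embryos (exact two-sided permutation test, p = 0.7, where 0.1 is the smallest p that 3 against 3 can give). Gated neurons with at least 2 *Nr2f2* UMIs, which the gate leaves out, made up 48.7%, 49.2% and 29.1% in the mutants, lowest in replicate 3, whose passing share was highest, and their part in these shares was not tested. Without replicate 3 the difference was 0.305 points. The passing share was higher in the mutant in 2 of the 3 littermate pairs, and in 3 of 3 pairs under each of 3 other gates. The difference was 1.86 points with a *Hoxb5* minimum of 3 (p = 0.5), 3.66 points with a mitochondrial limit of 5% (p = 0.3) and 5.00 points when cells were thinned to 10000 UMIs before the gate (p = 0.2), all by the same exact permutation test. A difference was therefore not detectable with these embryos, and a design of this size could not reach a p of 0.05. In sorted cells, a share describes cells captured and sorted, and not the number of cells in the animal.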

How the data were processed

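The files hold UMI counts per gene and cell, which the authors made with Cell Ranger (5.0.1 for all P5 and E18.5 libraries) on mm10 with the WPRE sequence of the reporter added and deposited without normalization, for 31054 genes, per the submitters' processing notes. The 6 E14.5 libraries were not used here. The authors filtered cells with Seurat, state a mitochondrial limit of under 1% with criteria that depend on age, and removed doublets with DoubletFinder. Here the deposited barcodes were gated as described with a limit of 10%, and doublets were left in, with an alternative without the 7.5% of cells per library with the highest Scrublet scores. P5 libraries held 15821 and 9586 barcodes. The gate, the members and the gene lists were chosen with earlier results of these data known.

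UMIs were summed per library and class and compared with edgeR 4.0.16 in R 4.3.3 (TMM, quasi-likelihood F test, two-sided, library as block), over genes detected in 10% or more of the cells of either class, with Benjamini-Hochberg adjustment over all genes tested. The 6 gate genes and WPRE were fitted and never counted. SE is the log2 change divided by the square root of F. The stage difference is the class by stage interaction over 5 control libraries. The study tested single cells, and here libraries were tested because cells of a library are not replicates. Both classes of a contrast come from the same library, and deviations of the 2 classes from their class means correlated at 0.827 at P5 and at 0.379, 0.226 and 0.419 at E18.5. The scripts were tested on simulated data.

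Named genes are the listed markers and gate genes, the called genes with the same sign in both P5 libraries that ranked among the top 12 in either direction, up to 4 called genes of each list by absolute change, every Hox gene tested and, in each other P5 contrast, the 4 largest rises and falls. Clustering used scanpy 1.11.5 (2000 variable genes, 30 components, 15 neighbors, Leiden resolution 1.0, seed 1). Other versions were DESeq2 1.42.0, Python 3.11.15, numpy 2.4.6, scipy 1.17.1 and pandas 2.3.3. Gene positions are from GENCODE M21 on GRCm38, and upstream sequences are from RefSeq. The alternatives were DESeq2, no block, library totals without TMM, no gene filter, comparison cells with 0 *Hoxb5* UMIs, depth-matched cells, cells thinned to 10000 UMIs before the gate, a *Hoxb5* minimum of 3, a mitochondrial limit of 5%, no high Scrublet scores, all 6 E18.5 libraries and leaving out each library. Some genes that the naming rule selects are not reported here.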

Additional observations from a re-analysis of the deposited data

Results flagged for a closer look

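The results below were picked out because the change between cells that pass the gate and comparison neurons differed between P5 and E18.5 by the interaction test. Values are the P5 log2 change minus the E18.5 log2 change from edgeR. In all, 912 of 11288 genes tested were called (8.08%, 414 with a higher and 498 with a lower value at P5). Stage and dissection (pontine nuclei or whole hindbrain) cannot be told apart, and no cause was tested.

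Among the listed markers and the genes with the largest P5 changes, the values were 1.438 for *Pappa2*, 2.792 for *Hmcn1*, 1.067 for *Car7*, -6.161 for *Pnoc* and -2.026 for *Prdm6*. These genes were picked with P5 values known, so the P5 side of each difference was selected. *Pnoc* rested on few E18.5 UMIs, at 0.475, 0 and 8.60 CPM in passing cells and 0, 2.04 and 0.889 in the others, and replicate 3 alone held 33 of the 34 UMIs of the passing cells. Of all the calls listed here, those of *Car7*, *Pnoc*, *Meis2*, *Ebf1*, *Cbln2*, *Ntrk3* and *Hoxd3* were lost with DESeq2, and those of *Car7*, *Ebf1*, *Dcc*, *Ntrk3*, *Robo2* and *Hoxd3* with depth-matched cells. *Hmcn1* was at 14.7, 8.75 and 15.9 at E18.5 against 8.83, 16.6 and 9.11, with no clear direction, and was called higher at that stage only without replicate 2. Of the Hox genes, the values were -0.8818 for *Hoxd3* and -0.6368 for *Hoxb3*.

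Among the regulators, *Tshz2* differed by -1.381, *Meis2* by -0.6312, *Pbx3* by 0.868, *Ebf1* by -0.5216, *Lmo3* by -0.5636 and *Barhl2* by 1.147. For guidance and adhesion genes the values were -1.194 for *Dcc*, 0.7699 for *Ntng1*, 0.5477 for *Ephb1*, 0.3512 for *Robo2*, 1.311 for *Cdh4*, 1.137 for *Cdh13* and 1.152 for *Cbln2*. Signaling and receptor genes gave 0.5394 for *Slc1a2*, -0.7444 for *Pcp4*, -0.9022 for *Calb1*, 1.786 for *Grik2*, 0.8347 for *Chrm2*, -0.4217 for *Ntrk3* and 0.806 for *Tgfb2*. *Egr1* differed by 0.984. Markers of other cell types gave 1.138 for *Reln*, 1.871 for *Slc1a3* and -0.8836 for *Mbp*. *Egr1* and *Slc1a3* were lower at E18.5 (-0.51 and -1.39) and higher at P5, and the *Egr1* call at E18.5 was lost with DESeq2, without the block, with depth-matched cells and without replicate 3.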

How the results depend on the processing

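With no replicate block, 222 genes were higher and 155 lower at P5, 1122 were called against *Nr2f2*-high, 621 against *Cdkn1c*-high and 857 against *Etv1*-high neurons, 20 between *Hoxa5*-positive and *Hoxa5*-negative members and 445 at E18.5. DESeq2 with the block called 677 higher and 506 lower at P5, 1722, 1471 and 1074 against the 3 classes, 258 by *Hoxa5*, 395 at E18.5 and 594 for the stage difference. With depth-matched cells the counts were 2080 against *Nr2f2*-high, 1482 against *Cdkn1c*-high, 2062 against *Etv1*-high neurons, 375 by *Hoxa5*, 632 at E18.5 and 447 for the stage difference. Thinning every cell to 10000 UMIs before the gate left 287 higher and 210 lower genes of 8547 tested. All 6 E18.5 libraries gave 1652 calls, and leaving out 1 control library gave 689 (replicate 3) to 892. Library totals without TMM gave 887 higher and 968 lower genes, and the median of all genes moved from -0.0014 to -0.0274.

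The P5 share of 17.4% was 14.54% with a *Hoxb5* minimum of 3, 5.60% after thinning, 18.1% without the highest Scrublet scores and 17.1 to 17.7% with 1 library left out. The E18.5 genotype difference ranged from 0.305 to 3.13 points with 1 pair left out, and flipping signs of the 3 littermate pairs (replicate block) gave an exact p of 0.5, where 0.25 is the smallest possible.

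Of 218 values of named genes, the alternatives left the direction and the call in 1613 cases, while 100 lost and 10 gained a call and 9 values without a test moved. In 9 cases an uncalled E18.5 change turned sign. *Cdh4* was at 0.040 with DESeq2, at 0.33 with depth-matched cells and between -0.22 and 0.25 with 1 library left out. *Cdh13* ranged from -0.15 to 0.42 with 1 library left out, with -0.07 without replicate 2, and *Cbln2* from -0.12 to 0.47, with -0.018 with depth-matched cells. *Grik2* was at 0.11 with depth-matched cells and between -0.72 and -0.19 with 1 library left out, and was called lower without replicate 3. *Mbp* ranged from -0.020 to 0.17 with 1 library left out. The causes were not tested. At P5, leaving out a library leaves no residual degrees of freedom, so only the change in the other library was computed, with no test. It kept its sign for every named gene that was called at P5.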
